A study of Mus musculus with 30 samples.

Results

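The lysyl oxidases (Lox, Loxl1, Loxl2, Loxl3 and Loxl4), the lysyl hydroxylases (Plod1, Plod2 and Plod3) and a pair of procollagen proteases (Bmp1 and Tll1) were described in mouse 3T3-L1 preadipocytes, an adherent embryonic fibroblast line that can be induced to form adipocytes. These 10 genes were chosen by name, and all 10 were found among the 55573 genes of the deposited table of CPM (read counts scaled to a common library total) and among the 12016 genes of the deposited count table. The cells had been reverse-transfected (mixed with the siRNA complexes as they were plated), while sub-confluent, with 50 nM of a Kdm5c siRNA or of a non-targeting siRNA (scramble), and were collected 24 h (day −2), 48 h (day −1) or 72 h (day 0) later. Kdm5c encodes a histone H3 lysine demethylase. The 6 groups were therefore Kdm5c siRNA and scramble on day −2, Kdm5c siRNA and scramble on day −1, and Kdm5c siRNA and scramble on day 0, each with 5 libraries. All groups shared the cell line, the transfection reagent and the preadipocyte medium, and no untransfected group was analysed here. The labels do not say whether the 5 libraries of a group came from separate cultures, so a p-value here reflects only how much these libraries vary, and that variation may be technical.

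Fibrillar collagens are made as procollagens whose lysines are hydroxylated in the endoplasmic reticulum by the lysyl hydroxylases, and whose propeptides are cut off by proteases on or after secretion. Lysyl oxidases, copper enzymes of the extracellular matrix, then oxidise lysines and hydroxylysines of collagen and lysines of elastin, and the aldehydes formed condense into the crosslinks that hold fibres together. Bmp1 and its relative Tll1 remove the carboxyl propeptide of procollagens, and Bmp1 also cuts the propeptide from the Lox precursor.

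The sequences before the RefSeq starts of Tll1 and Plod1 are shown because, over the 3 days of scramble cells, Tll1 had the largest fall of the 10 genes and Plod1 the largest rise. Each run is the 250 bases before the annotated RefSeq start of the gene (GRCm38.p6), on the gene's own strand and 5′ to 3′, and capitals mark each CG. The Tll1 run is chr8:64206009-64206258 (minus strand) and the Plod1 run is chr4:147936777-147937026 (minus strand). For Tll1 the annotations differ: GENCODE places the outermost start of the gene at 64206271, before the RefSeq start, so the Tll1 run precedes the RefSeq start but lies within the GENCODE bounds of the gene. The Plod1 run lies outside both.
Tll1: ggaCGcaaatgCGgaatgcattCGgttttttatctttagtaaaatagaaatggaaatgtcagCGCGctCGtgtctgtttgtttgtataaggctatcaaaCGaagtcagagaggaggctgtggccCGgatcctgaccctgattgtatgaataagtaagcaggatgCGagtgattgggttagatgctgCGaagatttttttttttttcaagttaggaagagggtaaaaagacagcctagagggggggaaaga
Plod1: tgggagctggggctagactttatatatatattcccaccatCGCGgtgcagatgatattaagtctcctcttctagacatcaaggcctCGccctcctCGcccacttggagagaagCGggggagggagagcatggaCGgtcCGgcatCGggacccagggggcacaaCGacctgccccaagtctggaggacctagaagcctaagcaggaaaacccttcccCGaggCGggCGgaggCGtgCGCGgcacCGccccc
The Tll1 run held 10 CG and the Plod1 run 16. Of 32851 RefSeq promoters of the same length, 37.8% held at least as many CG as the Tll1 run and 25.4% at least as many as the Plod1 run, against a median of 6. These counts describe the letters only; no binding or methylation was measured. Upstream sequences were matched for 4 of the 10 genes in the sequence table.

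The libraries held 25217905 to 33725717 reads. Kdm5c itself was lower in every Kdm5c siRNA library than in any scramble library of its day: it averaged 25.5 ± 1.29 CPM under Kdm5c siRNA and 157 ± 1.75 CPM in scramble on day −2, 35.6 ± 3.57 and 189 ± 2.91 CPM on day −1, and 53.3 ± 2.37 and 212 ± 4.84 CPM on day 0 (SD, n = 5 each). That left 16.3%, 18.9% and 25.2% of the scramble level on the 3 days. Of 8 fibroblast and preadipocyte markers, 7 averaged at least 1 CPM in every group, and Cd34 did not. Their summed level was 24555.2 to 26180.4 CPM under Kdm5c siRNA and 23252.7 to 24264 CPM in scramble on day −2, 27445 to 29409 and 25821.6 to 28902.9 CPM on day −1, and 32445.5 to 36596 and 34231.5 to 37844.2 CPM on day 0. The siRNA groups were thus separate on day −2 and overlapped later, and the sum was higher on each later day. Among 6 markers of mature adipocytes only Fabp4, a fatty acid binding protein, reached 1 CPM, and Adipoq, Lep, Plin1, Cidec and Retn stayed at or below 0.181 CPM. The summed adipocyte markers, nearly all Fabp4, were at 9.73 to 13 CPM under Kdm5c siRNA and 10.3 to 12.7 CPM in scramble on day −2, and at 28.7 to 35.5 and 22 to 28.8 CPM on day 0. No marker of endothelial or epithelial cells averaged 1 CPM; Csf1r and Cd68 of the macrophage list did, at up to 7.48 and 4.17 CPM, with Ptprc at or below 0.0985 CPM. The summed macrophage list was at 6.37 to 9.12 CPM under Kdm5c siRNA and 4.82 to 7.31 CPM in scramble on day −2, 4.12 to 5.07 and 3.29 to 4.09 CPM on day −1, and 3.68 to 5.52 and 2.41 to 3.31 CPM on day 0, with separate siRNA groups on days −1 and 0. Des, the skeletal muscle marker that reached 1 CPM, gave that list a sum of 1.17 to 1.52 CPM under Kdm5c siRNA and 1.28 to 1.84 CPM in scramble on day −2, and 4.22 to 6.06 and 4.89 to 6.1 CPM on day 0. The part of these marker differences in the results was not tested. In such bulk RNA, fewer cells that express a gene and less of its RNA per cell cannot be told apart.

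Lox was the most abundant of the 10 transcripts per length in all 6 groups, followed by Loxl1 and Plod3; with the longest annotated transcript as length, Plod3 came before Loxl1 in day −2 Kdm5c siRNA cells. Levels of different genes were set side by side as CPM per kilobase of annotated exon. On day 0, Lox reached 213 ± 19.1 CPM per kilobase under Kdm5c siRNA and 228 ± 9.85 in scramble, Loxl1 109 ± 7.47 and 120 ± 4.84, and Plod3 61.6 ± 1.05 and 58.2 ± 2.18 (SD, n = 5 each). Bmp1 (51.2 ± 1.13 and 43.1 ± 0.494 CPM per kilobase), Loxl3 (43.5 ± 1.64 and 37.9 ± 0.71), Plod1 (31.3 ± 1.17 and 33.3 ± 1.05) and Loxl4 (16.7 ± 0.807 and 17.1 ± 0.871) formed the middle of the order. Plod2 followed with 8.18 ± 0.464 CPM per kilobase under Kdm5c siRNA and 7.06 ± 0.744 in scramble. Tll1 (0.903 ± 0.0705 and 0.414 ± 0.0396) and Loxl2 (0.666 ± 0.0543 and 0.427 ± 0.0531 CPM per kilobase) were lowest. Per kilobase of annotated exon, neighbours in the order mostly had separate ranges over their 5 libraries. The exceptions were Loxl3 and Bmp1 in day −1 scramble cells and Loxl2 and Tll1 in day 0 scramble cells. The order itself depended on the length used. With the longest annotated transcript, Plod1 came before Loxl3 in both day 0 groups, and Tll1 before Loxl2 in day 0 scramble cells, among other changes.

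**Figure D1:**
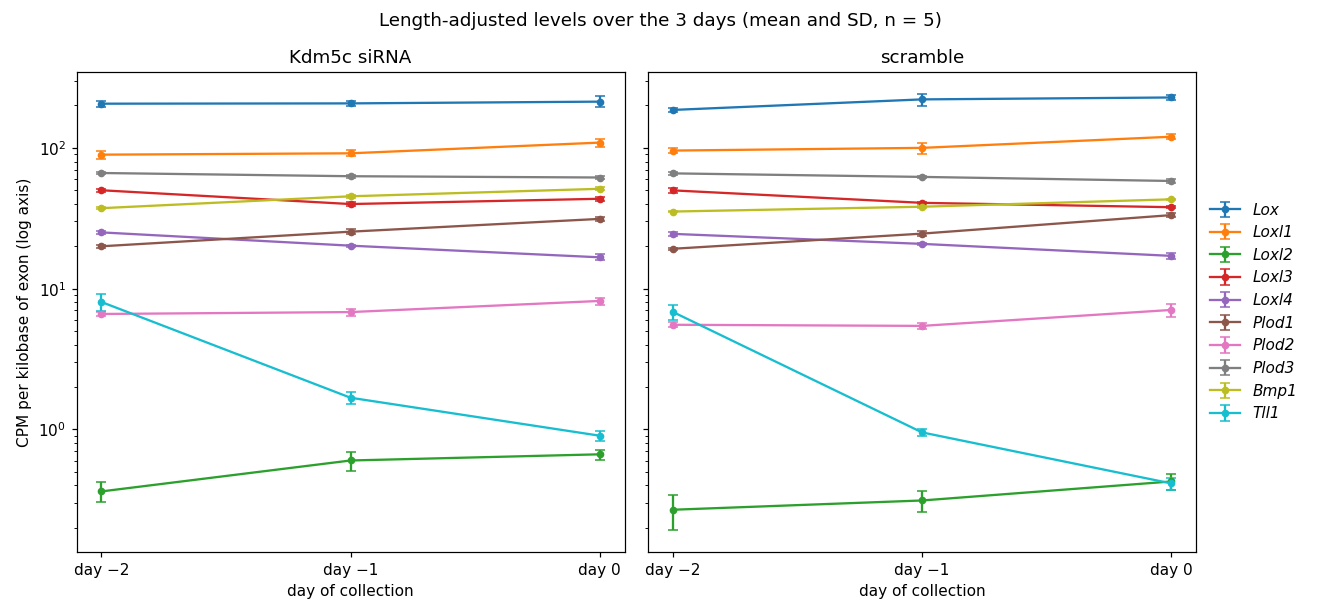
Mean level of each gene (CPM per kilobase of exon, log axis; bars are SD over 5 libraries) on day −2, day −1 and day 0, in Kdm5c siRNA cells (left) and scramble cells (right). Lox is at the top in both panels, and the Tll1 line drops to 0.903 under Kdm5c siRNA and 0.414 in scramble on day 0.

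Within families the balance of transcripts moved over the days. Lox and Loxl1 together gave 79.6% ± 1.01 of the summed length-adjusted level of the 5 lysyl oxidase genes under Kdm5c siRNA and 79.0% ± 0.45 in scramble on day −2, and 84.0% ± 1.08 and 86.2% ± 0.428 on day 0 (SD, n = 5 each). Plod3, which also transfers sugars to hydroxylysine, made up 71.4% ± 0.698 of the lysyl hydroxylase transcripts under Kdm5c siRNA and 72.7% ± 0.406 in scramble on day −2, but 60.9% ± 0.795 and 59.0% ± 1.69 on day 0. Plod1 took 21.5% ± 0.671 and 21.2% ± 0.461 on day −2, and 31.0% ± 0.643 and 33.8% ± 1.04 on day 0. The share of Tll1 in the sum of Bmp1 and Tll1 was 17.7% ± 1.77 under Kdm5c siRNA and 16.2% ± 1.65 in scramble on day −2, 3.57% ± 0.292 and 2.43% ± 0.154 on day −1, and 1.74% ± 0.166 and 0.951% ± 0.0835 on day 0. These shares are descriptions and depend on the exon lengths used.

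The effect of Kdm5c siRNA was tested on each day with edgeR's quasi-likelihood test over all 12016 genes, with Benjamini-Hochberg adjustment and calls at an adjusted p under 0.05. On day −2, 5 of the 10 genes rose (Lox, Loxl2, Plod2, Bmp1 and Tll1) and 0 fell, where 11.3% of all genes rose and 11.9% fell. On day −1, 4 rose (Loxl2, Plod2, Bmp1 and Tll1) and Loxl1 fell, against 18.8% of all genes that rose and 16.8% that fell. On day 0, 6 rose (Loxl2, Loxl3, Plod2, Plod3, Bmp1 and Tll1) and 2 fell (Loxl1 and Plod1), against 19.3% and 16.2% of all genes. Loxl2, Plod2, Bmp1 and Tll1 rose on all 3 days, and Loxl4 was not called on any. The median log2 fold change of the 10 genes was 0.07, 0.03 and 0.14 on the 3 days, beside 0.0 over all genes on each. The ranges of the 5 and 5 libraries did not overlap for 3 of the 10 genes on day −2 (16.1% of all genes), 4 on day −1 (22.3%) and 5 on day 0 (21.7%).

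**Figure D2:**
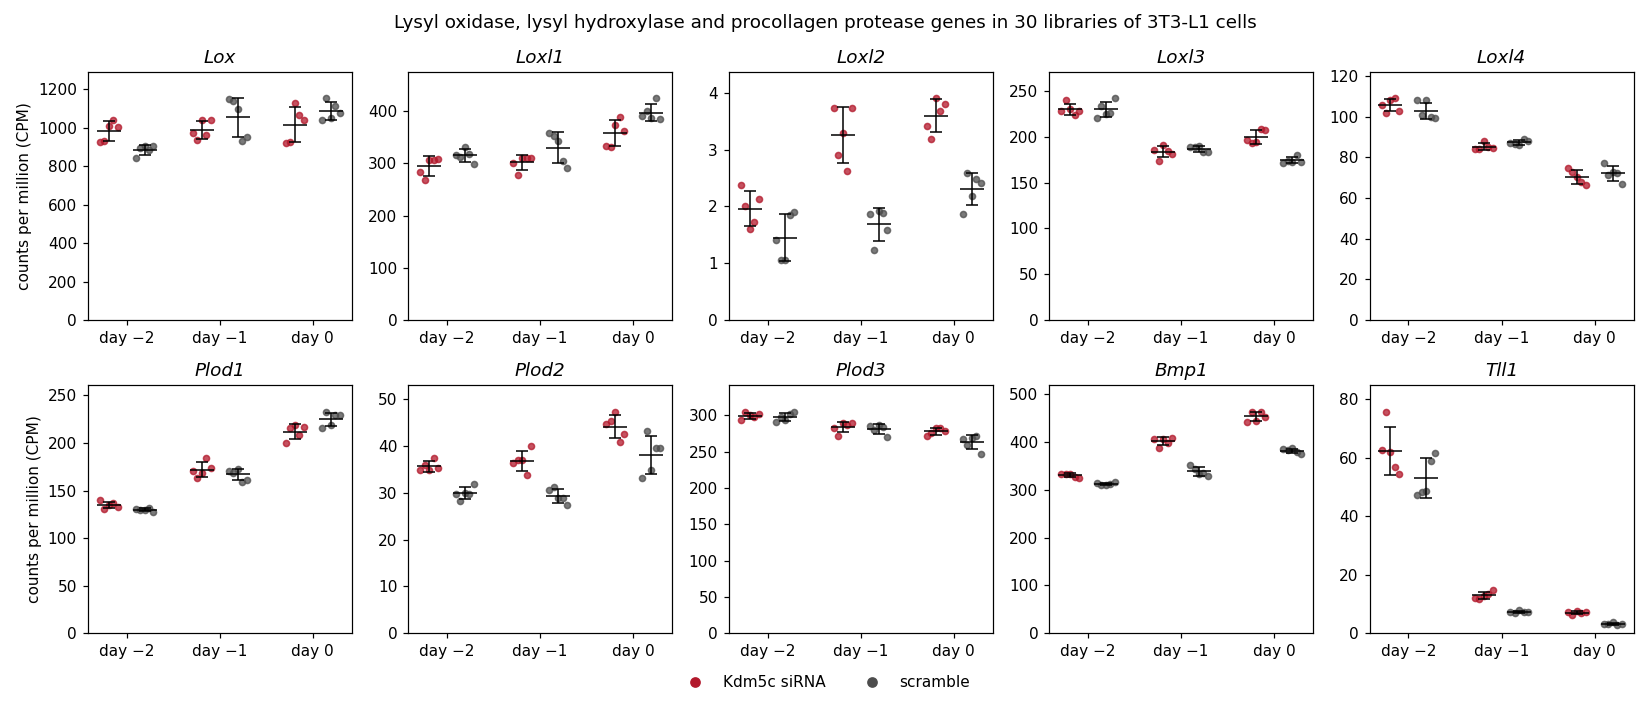
CPM of each gene in all 30 libraries (points), with mean and SD of each group of 5 (black), by day; Kdm5c siRNA (red) stands left of scramble (grey). The red points of Bmp1 lie above all grey points on each day, whereas those of Loxl4 overlap the grey ones.

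**Figure D3:**
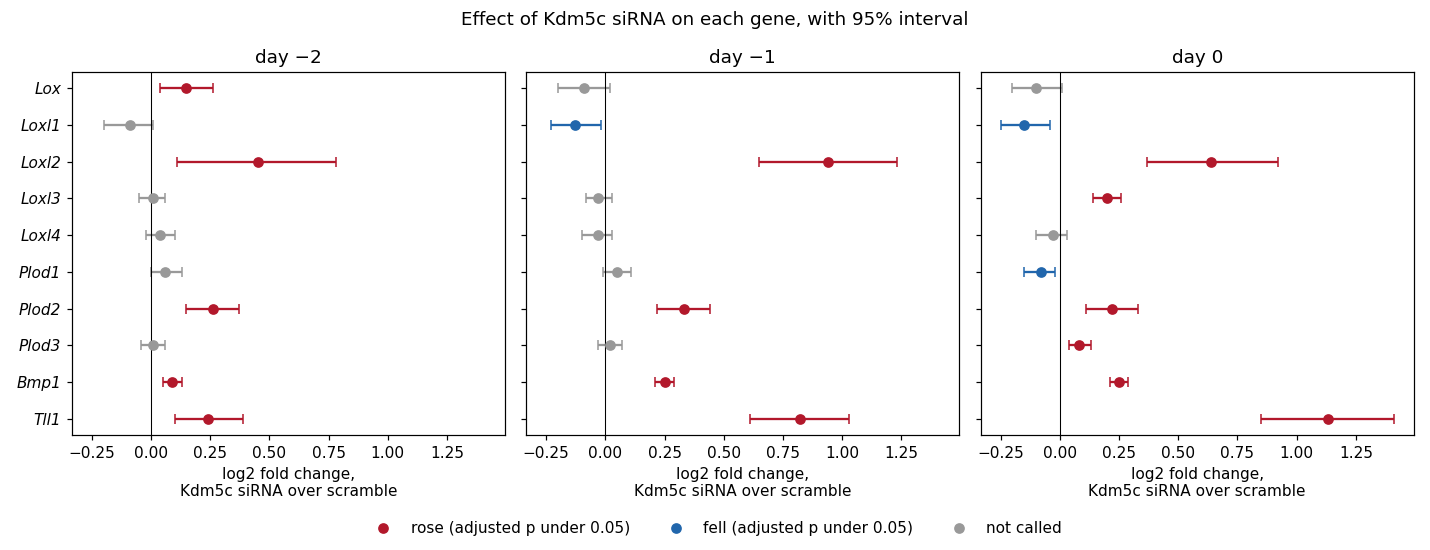
Log2 fold change of Kdm5c siRNA over scramble for each gene on day −2, day −1 and day 0. Bars are 95% intervals from a standard error derived from the edgeR F statistic, at 24 residual degrees of freedom. Red marks genes that rose, blue genes that fell and grey genes not called. The largest values are those of Loxl2 on day −1 (0.94) and of Tll1 on day 0 (1.13).

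Lox, the founding enzyme of the family (ENSMUSG00000024529, minus strand, with 4778 bases of exon, 30 of them shared with the antisense gene AC161119.1, which stayed at or below 3.91 CPM), rose on day −2 and was not called afterwards. On day −2 it had 927, 931, 1012.5, 1040.6 and 1005.2 CPM under Kdm5c siRNA, against 844, 893, 907, 883 and 905 CPM in scramble, with every Kdm5c siRNA library above every scramble library. The log2 fold change was 0.15 ± 0.05 (SE; adjusted p = 0.033, edgeR). The call was lost on leaving out 1 library in 5 of 10 cases, with adjusted p up to 0.0922 (edgeR): scramble replicate 1 or 4, or Kdm5c siRNA replicate 3, 4 or 5. On day −1, Lox had 972, 936, 1040.4, 965 and 1039.3 CPM under Kdm5c siRNA, against 1148.1, 1139.5, 1098.4, 932 and 955 CPM in scramble. Scramble replicates 1, 2 and 3 lay above every Kdm5c siRNA library, whereas replicate 5 lay among them and replicate 4 just below them. The log2 fold change was −0.09 (95% interval −0.20 to 0.02; adjusted p = 0.203, edgeR). On day 0, the values were 920, 926, 1128.2, 1069.1 and 1039.9 CPM under Kdm5c siRNA and 1040.6, 1153.3, 1049.1, 1115.8 and 1080 CPM in scramble, and the groups overlapped (log2 fold change −0.10, 95% interval −0.20 to 0.01). Without Kdm5c siRNA replicate 3 that difference was called at −0.13 (adjusted p = 0.0492, edgeR). The antisense gene AC161119.1 rose under Kdm5c siRNA on each day, with log2 fold changes of 0.31 ± 0.12, 0.41 ± 0.11 and 0.48 ± 0.12 (SE). Its adjusted p was 0.045, 0.00487 and 0.00278 (edgeR).

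Loxl1, an oxidase known for its part in elastic fibre deposition (chromosome 9, 58287738 to 58313186, minus strand, GRCm38), fell by small amounts on days −1 and 0. On day −1 it had 301, 277, 310, 310 and 310 CPM under Kdm5c siRNA, against 358, 353, 343, 304 and 291 CPM in scramble. The same scramble replicates 1, 2 and 3 stood above the rest. The log2 fold change was −0.13 ± 0.05 (SE; adjusted p = 0.0484, edgeR), and 0.02 without those 3 libraries, a value given with no test because they were picked with these levels in view. The call was also lost on leaving out any of 6 single libraries, namely scramble replicate 1, 2 or 3 or Kdm5c siRNA replicate 1, 2 or 5, with adjusted p up to 0.163 (edgeR). On day 0, Loxl1 had 334, 332, 374, 388 and 362 CPM under Kdm5c siRNA, against 391, 400, 387, 424 and 384 CPM in scramble. Only Kdm5c siRNA replicate 4 reached the scramble range. The log2 fold change was −0.15 ± 0.05 (SE; adjusted p = 0.0195, edgeR), with adjusted p up to 0.0734 without scramble replicate 4 or Kdm5c siRNA replicate 1 or 2. On day −2 the log2 fold change of Loxl1 was −0.09 (95% interval −0.20 to 0.01; adjusted p = 0.19, edgeR). Across the 30 libraries, the deviations of Lox and Loxl1 from their group means correlated with Pearson's r = 0.84. That was the highest value among all pairs of the 10 genes, and it is a description of libraries that share depth and preparation.

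Loxl2 (chromosome 14, 69609068 to 69695834, plus strand, GRCm38), which carries scavenger receptor domains and also acts on basement membrane collagen, had the lowest read counts of the family, 32 to 126 reads per library. It rose on each day. On day −2 it had 2.37, 2.00, 1.60, 1.72 and 2.13 CPM under Kdm5c siRNA, against 1.41, 1.05, 1.06, 1.85 and 1.90 CPM in scramble. Those ranges overlapped, and the log2 fold change of 0.45 ± 0.16 (SE; adjusted p = 0.0417, edgeR) was lost on leaving out any of 6 single libraries (scramble replicate 1, 2 or 3, Kdm5c siRNA replicate 1, 2 or 5), with adjusted p up to 0.134. On day −1 it had 3.73, 2.90, 3.30, 2.62 and 3.74 CPM under Kdm5c siRNA, against 1.86, 1.23, 1.92, 1.88 and 1.59 CPM in scramble. No library of one group reached the other, and the log2 fold change was 0.94 ± 0.14 (SE; adjusted p = 2.89e-06, edgeR). On day 0 it had 3.42, 3.18, 3.90, 3.68 and 3.81 CPM under Kdm5c siRNA, against 1.87, 2.59, 2.19, 2.49 and 2.41 CPM in scramble. The groups were again separate, at 0.64 ± 0.13 on the log2 scale (SE; adjusted p = 0.000261, edgeR). Even so, Loxl2 gave only 0.174% ± 0.00633 of the length-adjusted lysyl oxidase transcripts under Kdm5c siRNA and 0.106% ± 0.0107 in scramble on day 0 (SD, n = 5 each). Its effect on day −1 ranked 17th from the highest among the 12016 genes.

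Loxl3 and Loxl4 carry scavenger receptor domains as Loxl2 does. Loxl3 (chromosome 6, 83034173 to 83052562, plus strand, GRCm38) rose on day 0, when it had 197, 193, 195, 209 and 208 CPM under Kdm5c siRNA, against 172, 174, 173, 180 and 173 CPM in scramble. All Kdm5c siRNA libraries lay above all scramble libraries, and the log2 fold change was 0.20 ± 0.03 (SE; adjusted p = 5.24e-07, edgeR). On day −2 its log2 fold change was 0.01 (95% interval −0.05 to 0.06) and on day −1 it was −0.03 (−0.08 to 0.03). Loxl3 shares 535 exon bases with Htra2, a gene on the opposite strand; the library kit keeps strand, but whether the counting used it is not given in the sources used here. Htra2 was not called on day 0 (log2 fold change 0.03 ± 0.03, SE; adjusted p = 0.481, edgeR). Loxl4 (chromosome 19, 42593982 to 42612813, minus strand, GRCm38) averaged 106 ± 2.96 CPM under Kdm5c siRNA and 103 ± 3.98 CPM in scramble on day −2, 85.2 ± 1.65 and 87.4 ± 1.25 CPM on day −1, and 70.5 ± 3.4 and 72.1 ± 3.67 CPM on day 0 (SD, n = 5 each). Its log2 fold changes were 0.04 (95% interval −0.02 to 0.10), −0.03 (−0.10 to 0.03) and −0.03 (−0.10 to 0.03), so a change beyond 0.10 in size lies outside all 3 intervals.

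Among the lysyl hydroxylases, Plod2 rose on each day. Plod2 (chromosome 9, 92542223 to 92608428, plus strand, GRCm38) hydroxylates lysines in the telopeptides of collagen, the short ends where crosslinks form. On day −2 it had 34.8, 36.0, 34.8, 37.4 and 35.2 CPM under Kdm5c siRNA, against 29.7, 28.2, 29.9, 29.8 and 31.8 CPM in scramble, with no overlap. On day −1 it had 36.3, 36.9, 37.0, 33.8 and 40 CPM under Kdm5c siRNA, against 30.5, 31.2, 28.8, 28.9 and 27.3 CPM in scramble, again with no overlap. On day 0 it had 44.7, 45.2, 47.3, 40.8 and 42.6 CPM under Kdm5c siRNA, against 33.2, 43.2, 34.9, 39.5 and 39.6 CPM in scramble, where scramble replicate 2 lay within the Kdm5c siRNA range. The log2 fold changes were 0.26 ± 0.06, 0.33 ± 0.05 and 0.22 ± 0.05 (SE), with adjusted p = 0.000657, 1.32e-05 and 0.00154 (edgeR).

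Plod1 and Plod3 moved less and were called on day 0 alone, in opposite directions. Plod1 (chromosome 4, 147909753 to 147936767, minus strand, GRCm38), which hydroxylates lysines of the collagen helix, had 200, 216, 219, 208 and 217 CPM under Kdm5c siRNA on day 0, against 216, 233, 219, 229 and 229 CPM in scramble. The groups overlapped at their edges, and the log2 fold change was −0.08 ± 0.03 (SE; adjusted p = 0.0267, edgeR). That call was lost on leaving out any of 5 single libraries (scramble replicate 2, 4 or 5, Kdm5c siRNA replicate 1 or 4), with adjusted p up to 0.113. On days −2 and −1 its log2 fold changes were 0.06 (95% interval 0.00 to 0.13) and 0.05 (−0.01 to 0.11). Plod3 (chromosome 5, 136987019 to 136996648, plus strand, GRCm38) had 272, 275, 282, 283 and 279 CPM under Kdm5c siRNA on day 0, against 268, 259, 269, 272 and 247 CPM in scramble. No scramble library exceeded a Kdm5c siRNA library, although scramble replicate 4 came within rounding of Kdm5c siRNA replicate 1. The log2 fold change was 0.08 ± 0.02 (SE; adjusted p = 0.00481, edgeR); on days −2 and −1 it was 0.01 (95% interval −0.04 to 0.06) and 0.02 (−0.03 to 0.07). Plod3 shares 529 exon bases with Znhit1 on the opposite strand, which fell on day 0 (log2 fold change −0.18 ± 0.04, SE; adjusted p = 0.00128, edgeR).

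Both procollagen proteases rose on each day. Bmp1 (chromosome 14, 70474558 to 70520234, minus strand, GRCm38) had 334, 333, 334, 327 and 326 CPM under Kdm5c siRNA on day −2, against 314, 311, 310, 313 and 316 CPM in scramble. On day −1 it had 407, 388, 407, 399 and 408 CPM under Kdm5c siRNA, against 353, 343, 334, 335 and 330 CPM in scramble. On day 0 it had 443, 464, 445, 464 and 453 CPM under Kdm5c siRNA, against 386, 383, 387, 380 and 376 CPM in scramble. The groups were separate on all 3 days. The log2 fold changes were 0.09 ± 0.02, 0.25 ± 0.02 and 0.25 ± 0.02 (SE), with adjusted p = 0.0013, 4.36e-12 and 2.63e-12 (edgeR). Gene counts do not separate the short Bmp1 transcript from the longer one that encodes mammalian tolloid.

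Tll1 (chromosome 8, 64014931 to 64206271, minus strand, GRCm38), whose run before the RefSeq start is shown above, encodes a tolloid-like protease of the same family. On day −2 it had 62.7, 75.8, 61.9, 56.9 and 54.5 CPM under Kdm5c siRNA, against 47.3, 48.2, 48.7, 58.9 and 61.8 CPM in scramble. The ranges overlapped through scramble replicates 4 and 5, and the log2 fold change was 0.24 ± 0.07 (SE; adjusted p = 0.0104, edgeR). Without Kdm5c siRNA replicate 2, the highest library, it was 0.16 (adjusted p = 0.0674, edgeR). On day −1 it had 12.2, 11.6, 12.9, 13.5 and 14.8 CPM under Kdm5c siRNA, against 7.26, 7.08, 8.04, 7.43 and 7.15 CPM in scramble. On day 0 it had 7.36, 6.15, 7.54, 6.83 and 7.14 CPM under Kdm5c siRNA, against 3.14, 3.09, 3.74, 2.95 and 3.14 CPM in scramble. Both later days showed no overlap, and the log2 fold changes were 0.82 ± 0.10 and 1.13 ± 0.14 (SE), with adjusted p = 1.05e-07 and 4.88e-08 (edgeR). On day 0 that effect ranked 17th from the highest of 12016 genes, although it was reached at a low level, with 174 to 226 reads per Kdm5c siRNA library and 81 to 101 per scramble library.

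The days themselves were compared within scramble cells, day 0 against day −2 first. All 10 genes were called: 6 rose and 4 fell, beside 44.6% and 43.6% of all genes. Tll1 fell most, to 3.21 ± 0.307 CPM on day 0, against 53.0 ± 6.82 CPM on day −2 (SD, n = 5 each; log2 fold change −4.08 ± 0.10, SE; adjusted p = 7.81e-28, edgeR), and only 7 genes had a lower value. Loxl4 (−0.56 ± 0.03), Loxl3 (−0.43 ± 0.03) and Plod3 (−0.22 ± 0.02, log2 fold change and SE) also fell. Htra2, which overlaps Loxl3, had a log2 fold change of −0.86 ± 0.03 in that comparison. Plod1 rose by 0.76 ± 0.03, Loxl2 by 0.64 ± 0.16, Plod2 by 0.31 ± 0.05, Loxl1 by 0.29 ± 0.05, Lox by 0.26 ± 0.05 and Bmp1 by 0.25 ± 0.02 on the log2 scale.

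The steps between neighbouring days differed by gene. In the first interval, day −1 against day −2, 3 genes rose (Plod1, Lox and Bmp1) and 4 fell (Tll1, Loxl3, Loxl4 and Plod3) in scramble cells, beside 39.5% and 39.4% of all genes. Tll1 already stood at −2.91 ± 0.09 on the log2 scale (SE; adjusted p = 1.86e-24, edgeR) there. Lox had 0.18 ± 0.05 (SE; adjusted p = 0.00302, edgeR), and 0.02 without scramble replicates 1, 2 and 3 of day −1, again with no test. Bmp1 had 0.04 ± 0.02 (adjusted p = 0.0375, edgeR), and 0.01 (adjusted p = 0.893, edgeR) without a filter on low counts. It was also not called with any of 5 single libraries left out (scramble replicate 2, 3 or 4 of day −2, or 1 or 2 of day −1), with adjusted p up to 0.161. In the second interval, day 0 against day −1, 5 genes rose (Loxl1, Loxl2, Plod1, Plod2 and Bmp1) and 4 fell (Loxl3, Loxl4, Plod3 and Tll1), beside 36.8% and 37.9% of all genes. Plod1 had log2 fold changes of 0.29 ± 0.03 and 0.47 ± 0.03 (SE) in the successive intervals. Plod2 had −0.10 (95% interval −0.22 to 0.02) in the first and 0.41 ± 0.06 (SE; adjusted p = 4.67e-08, edgeR) in the second. The fall of Loxl3 in the second interval was small (−0.07 ± 0.03, SE; adjusted p = 0.0285, edgeR), and it was not called with any of 6 single libraries left out (scramble replicate 1, 2 or 3 of day −1, or 1, 3 or 5 of day 0), with adjusted p up to 0.0638. That of Plod3 (−0.06, adjusted p = 0.0191, edgeR) was −0.04 (adjusted p = 0.107) without scramble replicate 5 of day 0, and was not called in the fit to the libraries of the contrast alone (adjusted p = 0.0727).

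In Kdm5c siRNA cells, 5 genes rose and 4 fell between day 0 and day −2, where 43.8% and 43.6% of all genes did. Tll1 fell to 7.01 ± 0.547 CPM on day 0, against 62.4 ± 8.27 CPM on day −2 (SD, n = 5 each), which is −3.19 ± 0.09 on the log2 scale (SE; adjusted p = 1.43e-26, edgeR). Lox had a log2 fold change of 0.01 (95% interval −0.10 to 0.12), Bmp1 one of 0.42 ± 0.02 and Plod1 one of 0.61 ± 0.03 (SE). Whether the siRNA effect differed between days was tested as a difference of the log2 fold changes in the same edgeR model. Between day 0 and day −2 it differed for 5 of the 10 genes, 3 of them upward and 2 downward, where 9.95% of all genes differed upward and 6.18% downward. The difference was 0.89 ± 0.15 for Tll1, 0.19 ± 0.04 for Loxl3, 0.16 ± 0.03 for Bmp1, −0.25 ± 0.08 for Lox and −0.15 ± 0.04 for Plod1 (log2 scale, SE). The adjusted p was 0.00011 for Tll1, 0.000575 for Loxl3, 6.28e-05 for Bmp1, 0.0199 for Lox and 0.0166 for Plod1 (edgeR). Between day −1 and day −2 it differed for Bmp1 (0.16 ± 0.03; adjusted p = 0.000369) and Tll1 (0.58 ± 0.12; adjusted p = 0.00512, edgeR), where 2.14% of all genes differed upward and 1.42% downward. Without scramble replicates 1, 2 and 3 of day −1, that of Tll1 was 0.60 (adjusted p = 0.0585, edgeR). For Lox that difference was −0.24 and not called (adjusted p = 0.0639, edgeR), but it was called at −0.28 without day −1 scramble replicate 4 or 5 (adjusted p = 0.0186 and 0.0297), the libraries of that group lowest in Lox. Between day 0 and day −1 it differed for Loxl3 (0.23 ± 0.04; adjusted p = 0.000221, edgeR), where 4.06% of all genes differed upward and 1.81% downward. For Plod1 that difference was −0.13 and not called (adjusted p = 0.0614, edgeR), but it was called at −0.14 to −0.16 (adjusted p = 0.0237 to 0.0495) on leaving out day −1 scramble replicate 3, day −1 Kdm5c siRNA replicate 2, day 0 scramble replicate 1 or day 0 Kdm5c siRNA replicate 3. For Plod2 the difference between day 0 and day −2 was −0.04 (95% interval −0.20 to 0.12) and for Loxl2 it was 0.19 (−0.24 to 0.63). These differences and the daily effects share both the Kdm5c siRNA and the scramble libraries of a day. The changes over days in scramble cells share the scramble libraries with them, and those in Kdm5c siRNA cells the Kdm5c siRNA libraries.

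**Figure D4:**
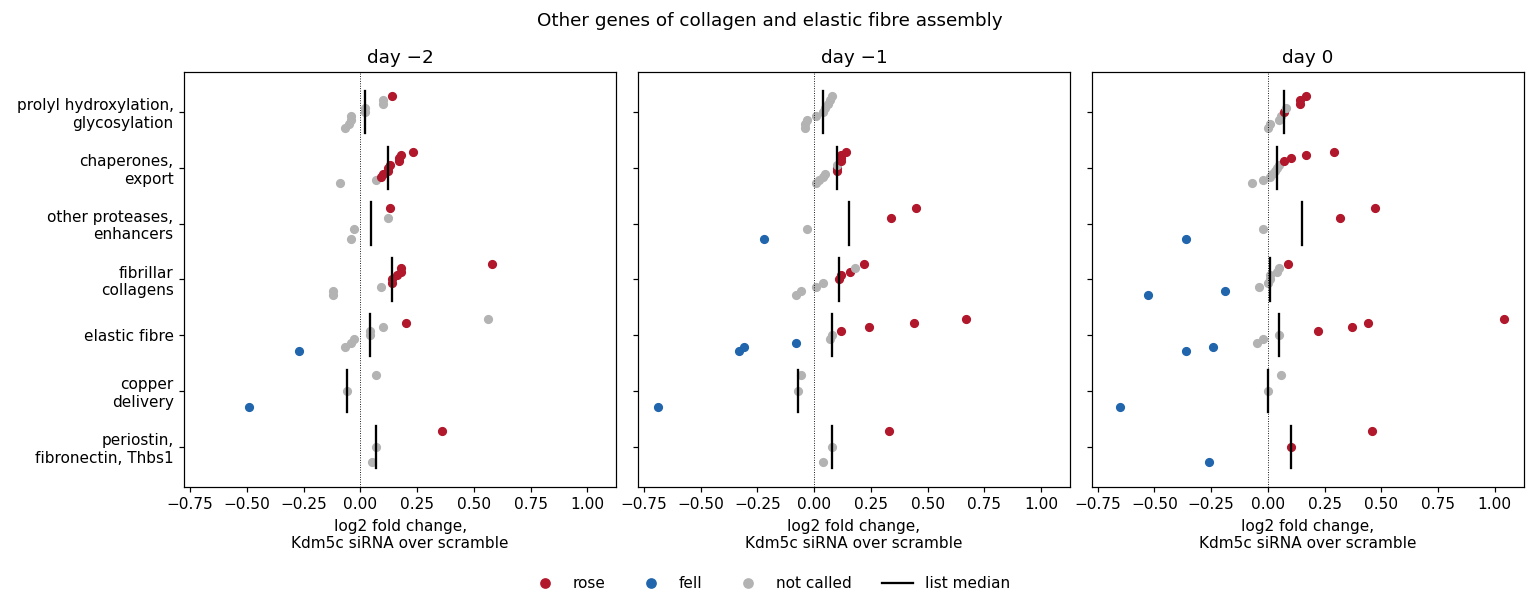
Log2 fold change of Kdm5c siRNA over scramble on day −2, day −1 and day 0 for the measured genes of 7 lists around collagen and elastic fibre assembly (1 point per gene; red rose, blue fell, grey not called; black bar is the list median). Procollagen chaperone genes lie mainly to the right of 0 on day −2, and Atp7a is the blue point of the copper row.

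The rest of the pathway was described from 7 lists with 60 symbols, of which 48 were measured genes. Their counts stand beside 11.3% of all genes that rose and 11.9% that fell on day −2, 18.8% and 16.8% on day −1, and 19.3% and 16.2% on day 0. Of 11 procollagen chaperone and export genes, 9 rose on day −2, 6 on day −1 and 4 on day 0, and 0 fell on any day; the list medians were 0.12, 0.10 and 0.04 on the log2 scale, beside 0.0 over all genes. On day −2, Hspa5, the main chaperone of the endoplasmic reticulum, had 938 ± 18.6 CPM under Kdm5c siRNA and 829 ± 23.4 CPM in scramble (SD, n = 5 each; log2 fold change 0.18 ± 0.02, SE). Creb3l1, a transcription factor of the secretory pathway, and Serpinh1, the collagen chaperone HSP47, had log2 fold changes of 0.23 ± 0.03 and 0.13 ± 0.02 (SE) there. Both also rose on day −1 (0.12 ± 0.03 and 0.12 ± 0.02), but neither was called on day 0 (−0.07 ± 0.03 and 0.03 ± 0.02). The rise of Hspa5 was largest on day 0, with 867 ± 12.9 CPM under Kdm5c siRNA and 709 ± 17.2 CPM in scramble. Its log2 fold change was 0.12 ± 0.02 on day −1 and 0.29 ± 0.02 on day 0 (SE). Fkbp10, a partner of the Plod2 protein, averaged 344 ± 10.8 CPM under Kdm5c siRNA and 312 ± 3.97 CPM in scramble on day −1, and 312 ± 2.12 and 278 ± 4.15 CPM on day 0. Its log2 fold changes were 0.14 ± 0.02 and 0.17 ± 0.02 (SE; adjusted p = 8.65e-07 and 4.17e-08, edgeR). Mia3, which helps load procollagen into transport carriers, rose by 0.10 ± 0.02 on the log2 scale on day 0. Of 9 genes of prolyl hydroxylation and collagen glycosylation, 1 rose on day −2 (P3h1, a prolyl 3-hydroxylase, 0.14 ± 0.04), 0 on day −1 and 4 on day 0, among them P4hb, the shared subunit of prolyl 4-hydroxylase, at 0.14 ± 0.02, P4ha2, a catalytic subunit, at 0.17 ± 0.05, and the cyclophilin Ppib at 0.07 ± 0.02 (log2 fold change, SE). In that list 0 fell, and its medians were 0.02, 0.04 and 0.07. Its count on day −2 is near the 11.3% of all genes that rose.

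Among other procollagen proteases and enhancers, 4 of 8 listed genes were measured. Of these, 1 rose and 0 fell on day −2, and 2 rose and 1 fell on each later day (median log2 fold changes 0.04, 0.16 and 0.15). Of all genes, 11.3%, 18.8% and 19.3% rose on the 3 days, and 11.9%, 16.8% and 16.2% fell. Adamts14, an amino propeptidase, rose on each day, with 38.5 ± 0.331 CPM under Kdm5c siRNA and 30.8 ± 0.916 CPM in scramble on day 0 (SD, n = 5 each; log2 fold change 0.32 ± 0.04, SE; adjusted p = 1.02e-08, edgeR). Its relative Adamts2 fell on days −1 and 0, with 72.7 ± 3.73 CPM under Kdm5c siRNA and 93.6 ± 5.73 CPM in scramble on day 0 (log2 fold change −0.36 ± 0.04, SE). Pcolce2, which enhances Bmp1 activity, rose on days −1 and 0 by 0.45 ± 0.06 and 0.47 ± 0.09 on the log2 scale. In scramble cells, Pcolce2 fell to 2.82 CPM on day 0, against 42.1 CPM on day −2 (log2 fold change −3.94 ± 0.06, SE), beside the fall of Tll1. Of 3 copper delivery genes, Atp7a, the pump that loads copper into secreted enzymes, fell on each day, with 22.2 ± 1.62 CPM under Kdm5c siRNA and 31.3 ± 1.8 CPM in scramble on day −2, 29 ± 1.51 and 46.7 ± 2.33 CPM on day −1, and 50.4 ± 2.22 and 79.4 ± 6.96 CPM on day 0. Its log2 fold changes were −0.49 ± 0.06, −0.69 ± 0.05 and −0.65 ± 0.05 (SE; adjusted p = 8.02e-08, 5.09e-12 and 2.02e-12, edgeR), and no library of the groups overlapped. Slc31a1 and Atox1, which import and carry copper, were not called on any day, and the medians of the 3 genes were −0.06, −0.07 and 0.0.

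Among the substrates, of 9 fibrillar collagen genes, 6 rose and 0 fell on day −2, 4 rose and 0 fell on day −1, and 1 rose and 2 fell on day 0, with medians of 0.14, 0.11 and 0.01 on the log2 scale. The counts on day 0 are near the 19.3% of all genes that rose and the 16.2% that fell, whereas on day −2 11.3% of all genes rose. Col1a1, Col1a2 and Col3a1 stand both in this list and among the fibroblast markers. Col1a1 was among the genes that rose on day −1. Col11a1 had 13.9 ± 0.727 CPM under Kdm5c siRNA and 9.29 ± 0.712 CPM in scramble on day −2, and 58.2 ± 6.45 and 83.9 ± 9.62 CPM on day 0 (SD, n = 5 each). Its log2 fold changes were 0.58 ± 0.10 and −0.53 ± 0.07 (SE; adjusted p = 3.07e-05 and 1.11e-07, edgeR). Col5a1 rose on all 3 days (0.18 ± 0.03, 0.16 ± 0.03 and 0.09 ± 0.03), Col5a2 on days −2 and −1 (0.18 ± 0.04 and 0.22 ± 0.04), and Col3a1 fell on day 0 (−0.19 ± 0.05, log2 fold change and SE). Of 9 elastic fibre genes, 1 rose and 1 fell on day −2, 4 rose and 3 fell on day −1, and 4 rose and 2 fell on day 0 (medians 0.04, 0.08 and 0.05). The day −2 counts are near the 11.3% and 11.9% of all genes, and on day −1 18.8% of all genes rose and 16.8% fell. Fbln5, a fibulin that binds Loxl1, fell on days −1 and 0 (−0.31 ± 0.04 and −0.36 ± 0.04), and Emilin1, a glycoprotein of elastic fibres, fell on all 3 days (−0.27 ± 0.05, −0.33 ± 0.05 and −0.24 ± 0.05). Fbn1, the main microfibril protein, rose on days −2 and −1 (0.20 ± 0.03 and 0.12 ± 0.03), Fbln2 rose on days −1 and 0 (0.24 ± 0.02 and 0.22 ± 0.02), and Ltbp4, a fibulin-binding protein of microfibrils, rose on those days (0.44 ± 0.04 on each, log2 fold change and SE). Eln, which encodes elastin, stayed at or below 1.45 CPM in every library and was not in the count table. Of the matrix proteins Postn, Fn1 and Thbs1, Thbs1 rose on each day (0.36 ± 0.05, 0.33 ± 0.05 and 0.46 ± 0.05), while on day 0 Fn1 rose (0.10 ± 0.02) and Postn fell (−0.26 ± 0.05, log2 fold change and SE); the medians of these 3 genes were 0.07, 0.08 and 0.10.

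The genes whose group means were most like those of Lox over the 6 groups were Gm1976, 3830408C21Rik and Poli, a DNA polymerase (Pearson's r of mean log2(CPM + 0.5) of 0.979, 0.958 and 0.957). For Loxl2 they were 2310015A10Rik, Syt8, a synaptotagmin, and 4930432K21Rik (r of 0.997, 0.993 and 0.987). These were taken from 6568 genes whose group means spanned at least 0.5 on the log2 scale, and with 6 groups such values are a description only.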

How the data were processed

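Strand-specific mRNA libraries of 3T3-L1 cells were made with a NuGEN kit, per the labels' protocols. The build GRCm38, edgeR 3.26.8 and STAR 2.7.2a are named, with no role given, per the submitters' processing notes. No source used here names the counter or the annotation. CPM for 55573 genes were deposited by the authors: whole reads over the library total (100.0% of nonzero values within 0.05 reads), and raw counts for those 12016 genes that reached a CPM of 1 in at least 20 libraries. Column names gave each library's day, siRNA and replicate. Gene symbols were matched for 12010 of these 12016 genes. GENCODE M21 (GRCm38) supplied positions, exon lengths and overlapping genes for the 10 genes described and Kdm5c.

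Libraries held 25217905 to 33725717 reads in total, so the limit that a count of 0 allows (3 reads) was 0.089 to 0.119 CPM; it covers counting error only. CPM values are printed unscaled. Counts were fitted in edgeR 4.0.16 (R 4.3.3) with TMM scaling, full library totals, 6 group means over 30 libraries, 24 residual degrees of freedom and quasi-likelihood tests, two-sided, adjusted by Benjamini-Hochberg over 12016 genes in each of 10 contrasts; the code was tested on simulated data. The SE was derived from the edgeR log2 fold change and its F statistic. The 95% intervals used that SE at 24 residual degrees of freedom. Because of TMM, a small log2 change between days can differ in sign from the ratio of mean CPM. Alternatives used other scalings, filters, DESeq2 1.42.0, limma 3.58.1 on log2(CPM + 0.5) and log2(CPM + 2), a replicate block, the libraries of a contrast alone and libraries left out.

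The genes described and the 7 lists were chosen with earlier results of these data known. Of each list, up to 3 called genes with the smallest adjusted p were named per siRNA comparison; for Lox and Loxl2, the 3 genes of most similar group means. Values outside that rule (Pcolce2 in scramble cells, the overlapping genes, uncalled or unmeasured list genes, further list values on other days) were added after they were seen.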

Additional observations from a re-analysis of the deposited data

Results flagged for a closer look

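Of 60 groups of 5 libraries examined for a single library far from the rest, 4 had one; chance gives about 1 in 20. Loxl1 was at 277 CPM in day −1 Kdm5c siRNA replicate 2, where the other libraries had 301 to 310 CPM. Loxl3 was at 180 CPM in day 0 scramble replicate 4, beside 172 to 174 CPM. Loxl4 was at 88.1 CPM in day −1 Kdm5c siRNA replicate 3, beside 84.2 to 85.1 CPM, and Tll1 at 3.74 CPM in day 0 scramble replicate 3, beside 2.95 to 3.14 CPM.

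Of 30 differences of the siRNA effect between days, 8 passed the edgeR test of the difference (log2 scale, SE, adjusted p). Between day 0 and day −2 these were Tll1 (0.89 ± 0.15, 0.00011), Loxl3 (0.19 ± 0.04, 0.000575), Bmp1 (0.16 ± 0.03, 6.28e-05), Lox (−0.25 ± 0.08, 0.0199) and Plod1 (−0.15 ± 0.04, 0.0166). Between day −1 and day −2 they were Tll1 (0.58 ± 0.12, 0.00512) and Bmp1 (0.16 ± 0.03, 0.000369), and between day 0 and day −1 Loxl3 (0.23 ± 0.04, 0.000221). Of all genes, 9.95% differed upward and 6.18% downward between day 0 and day −2. The shares were 2.14% and 1.42% between day −1 and day −2, and 4.06% and 1.81% between day 0 and day −1. The differences of a gene share libraries, so they are not separate results.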

How the results depend on the processing

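Of the 10 genes, 5 were called for the siRNA effect on day −2; leaving out 1 library gave 3 to 5, with 3 when scramble replicate 1 or Kdm5c siRNA replicate 2 or 5 was missing. The count for the difference of siRNA effects between day 0 and day −1 was 1, and 2 without TMM, without a filter, under both limma settings, and without day −1 scramble replicates 1, 2 and 3; leaving out 1 library gave 1 to 2. For the difference between day −1 and day −2 it was 2, with 2 to 3 on leaving out 1 library, and 1 without those 3 scramble libraries. Leaving these out, or replicates 4 and 5, was chosen after seeing the data. Lox, Loxl1, Loxl3, Loxl4 and Plod1 had no overlap between replicates 1, 2 and 3 and replicates 4 and 5. Values from leaving them out are therefore no test for these genes. That includes the Plod1 call behind the count of 2 without replicates 1, 2 and 3. The Lox difference of −0.24 between day −1 and day −2 was called in the fit to the libraries of the contrast alone (adjusted p = 0.04, edgeR). It was also called without a filter (adjusted p = 1.96e-11, edgeR), where it was −0.25, so the lower p came with almost the same difference. DESeq2, both limma settings and the replicate block did not call it. Without day −1 scramble replicates 1, 2 and 3, the day −1 siRNA effect on Loxl1 was 0.02, opposite in sign to the −0.13 with all libraries. With a replicate block, 99 of 100 log2 fold changes kept their sign and their side of the threshold; the exception was Bmp1 in scramble cells between day −1 and day −2 (adjusted p = 0.0503, edgeR), which took that count to 6 of 10 genes, beside 7. That Bmp1 call was also lost under median-of-ratios scaling (adjusted p = 0.0606), filterByExpr on recovered reads (0.247), no filter (0.893) and DESeq2 (0.0527). Same-numbered Kdm5c siRNA and scramble libraries of a day had deviations correlated at −0.25 to 0.33. Differently numbered libraries were not compared, so these values cannot show whether the numbers pair the samples. Without a filter, 92 of 100 were kept, and Lox on days −1 and 0 (adjusted p = 0.0015 and 0.000217) and Loxl1 on day −2 (0.008) were also called as lower under Kdm5c siRNA. Their log2 fold changes were −0.09, −0.10 and −0.09, the same as with the filter. The day −1 siRNA effect on Loxl1 was not called by DESeq2 (adjusted p = 0.0621), limma on log2(CPM + 0.5) (0.0503) or the fit to the libraries of that contrast alone (0.0547). DESeq2 kept 98 of 100 and the fit to the libraries of a contrast alone kept 93; in that fit, Loxl2 (edgeR adjusted p = 0.0799) and Tll1 (0.0539) were not called on day −2. With the longest annotated transcript as length, the number of genes at another rank was 6 in Kdm5c siRNA and 4 in scramble cells on day −2, 0 and 2 on day −1, and 2 and 4 on day 0. The cause was not tested for any of these changes, other than for ranks, where the length alone differed. Loxl2 rests on 32 to 126 reads per library, which limits its precision.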

Other observations

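The group means of Tll1 were also compared with those of other genes, a choice made after its values were seen. The most similar of 6568 genes over the 6 groups were Bdnf, a neurotrophin, Knop1, a nucleolar protein, and Tagln, an actin-binding protein of contractile cells (Pearson's r of 0.998, 0.998 and 0.997 on mean log2(CPM + 0.5)). On day 0, Tagln averaged 34.4 CPM under Kdm5c siRNA and 17.4 CPM in scramble, and Bdnf 44.2 and 38.2 CPM.

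Deviations from group means were also set against the leading axis of spread within groups, which held 24.6% of that variance over 10281 genes. Over 30 libraries, Pearson's r with that axis was 0.70 for Loxl1, 0.63 for Plod1, 0.56 for Lox and −0.42 for Tll1, and its size was at most 0.23 for each of the other 6 genes. Its part in the results was not tested.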
